A study of Mus musculus with 20 samples.

Results

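The comparison described here is that of the high-fertility mouse line FL1 with the unselected control line ctrl in diestrus, the luteal stage of the estrous cycle. It rests on 10 of the 20 ovary libraries of the series, namely the 5 libraries whose labels give FL1 and diestrus and the 5 whose labels give ctrl and diestrus, and all genes counted in them were read by pathway and by ovarian cell type. The other 10 libraries are from ovaries of the same lines in estrus. Both lines descend from 1 outbred population and the labels give the wild-type genotype for all animals, with no engineered allele and no treatment named. FL1 was bred for many generations for litter size together with the birth weight of the whole litter, and later for the number of offspring only. Ctrl was bred without selection. Each line is 1 breeding population, so that effects of selection and of drift or relatedness within FL1 cannot be told apart. Females were about 77 days old, each library came from 1 animal, and ovaries were freed of fat, tunica albuginea and oviduct before RNA was extracted.

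In diestrus the mouse ovary holds corpora lutea of the latest and of earlier cycles beside follicles of all sizes. Luteal cells take up or synthesize cholesterol, store it as ester, move it to the inner mitochondrial membrane through STAR and turn it into progesterone through CYP11A1 and 3β-hydroxysteroid dehydrogenase. Prolactin and LH sustain them, prostaglandin F2α and the enzyme 20α-hydroxysteroid dehydrogenase (AKR1C18) end their progesterone output, and macrophages enter the tissue as it regresses. Granulosa cells around the oocyte answer FSH, and ligands of the TGF-beta family with their binding proteins pass between oocyte, granulosa and theca.

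The libraries hold between 5991223 and 10352718 counts each. Total counts did not separate the lines (exact two-sided permutation test, p = 0.548), nor did the share of counts on mitochondrial genes, at 3.85 to 4.58% in FL1 and 4.34 to 6.90% in ctrl (exact two-sided permutation test, p = 0.0952, where the smallest possible p is 0.00794). Ctrl replicate 1 is the deepest library and stands apart in a few luteal and granulosa genes given below, and ctrl replicate 5 has the highest mitochondrial share. No pair of libraries of a group was alike within counting noise, with a chi-square per gene of 6.32 or more over 20 pairs. The label ovary was met by its markers, since summed luteal markers made up 44697 to 56779.8 CPM in FL1 and 35009 to 60724 CPM in ctrl, granulosa markers 6326 to 8850.0 CPM in FL1 and 5918 to 8221 CPM in ctrl and oocyte markers 617 to 831 CPM in FL1 and 598 to 1068 CPM in ctrl. Of the 12 oviduct markers and the 10 fat markers, 4 each passed the filter on low counts, and the oviduct glycoprotein Ovgp1 and the fat hormone Adipoq did not. In these whole ovaries, fewer cells of a type and less RNA per cell cannot be told apart.

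Of 13259 genes tested by edgeR's quasi-likelihood test, 545 (4.11%) differed between the lines after Benjamini-Hochberg adjustment (adjusted p up to 0.05), with 304 (2.29%) higher and 241 (1.82%) lower in FL1. The ranges of both lines did not overlap in 723 (5.45%) of the tested genes, with FL1 above ctrl in 393 (2.96%) and below it in 330 (2.49%). The median log2FC (FL1 minus ctrl) of all genes tested was -0.01, and 51.8% of them had a negative log2FC. Leaving out FL1 replicate 4 lowered the number of differentially expressed genes to 349, and no other single library moved it by more than 1.5 times. Of the 545 genes, 73 belong to at least 1 of 41 lists of ovarian pathways and cell types and 472 to none of them. Counts of called members of a list are to be read against the 4.11% called over all genes. Several lists lay near that share, such as the steroid synthesis and endothelial lists at 5% each. Among the 41 lists, the share of called members was highest for macrophage genes (5 of 14, 35.7%). The renin-angiotensin (2 of 10, 20%), chemokine (18.8%) and cholesterol lists (6 of 33, 18.2%) followed. The renin-angiotensin calls were lost in several fits that left out a library, as given below. Other lists had no call, such as the 29 interferon-stimulated, 14 smooth muscle and 13 cumulus genes, whose counts by other tests are given below. Expression is given below as CPM, counts scaled by TMM to a common library size, and errors are SD over the 5 libraries of a line for CPM and standard errors for log2FC. All adjusted p-values are edgeR's, over all 13259 genes unless stated. Calls that did not hold in each of the 10 fits that left out a library are named as such. Values of libraries are given in the order of replicates 1 to 5.

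**Figure D1:**
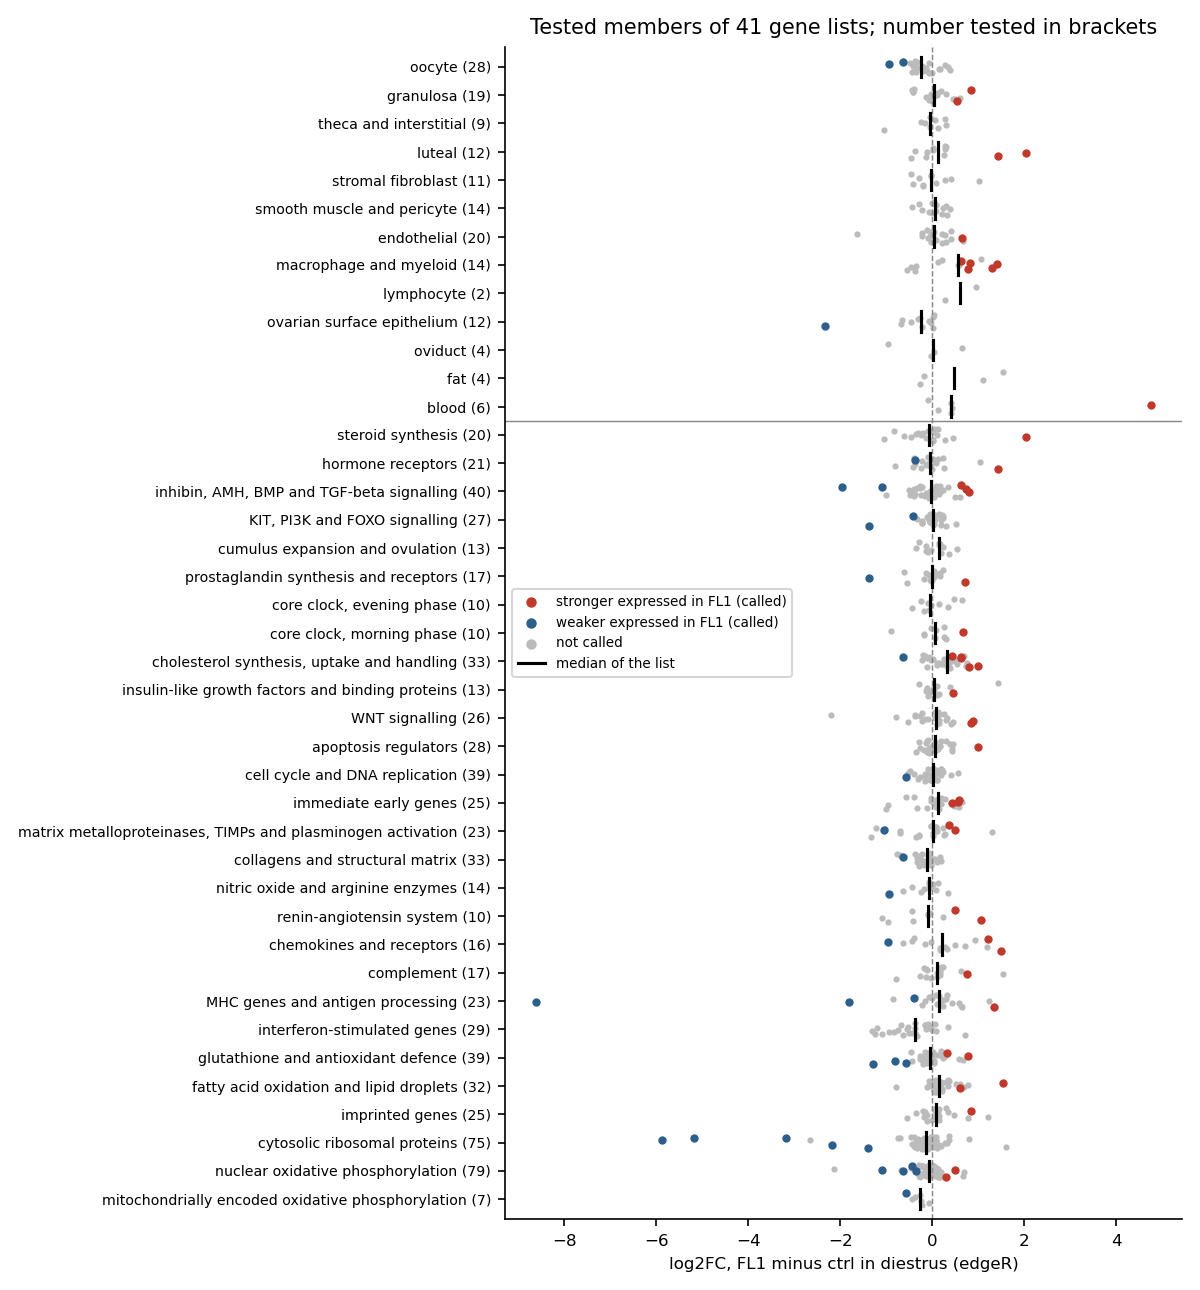
Log2FC (x axis, FL1 minus ctrl, edgeR) of every tested member of the 41 gene lists (rows, 13 cell type lists above the line and 28 pathway lists below it). Red and blue points are genes stronger and weaker expressed in FL1 at an adjusted p of at most 0.05, grey points did not pass, and the black bar is the median of the list. The macrophage list has its median at 0.57 with 5 called members, the cholesterol list at 0.32 with 6, and the interferon-stimulated list at -0.37 with no called member.

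The largest change in luteal steroid genes was that of Hsd17b7 (chr1:169949535-169969241, GRCm38), which codes for an enzyme that reduces estrone to estradiol and also serves cholesterol synthesis, and which marks luteal cells. Its expression was 3280.0, 1984, 2525, 2885 and 2035 CPM in FL1 and 415, 639.9, 1029, 899.7 and 90.8 CPM in ctrl. All FL1 libraries exceeded all ctrl libraries, with ctrl replicate 5 far below the other ctrl libraries. The means were 2542 ± 555 CPM in FL1 and 615 ± 377 CPM in ctrl, a 4.13-fold difference (log2FC 2.05 ± 0.43, adjusted p = 0.0152), and the call held whichever library was left out. The LH receptor gene Lhcgr (chr17:88716481-88791990) was expressed at 593, 341, 636, 681 and 696 CPM in FL1 and 127, 243, 357, 287 and 81.4 CPM in ctrl. FL1 replicate 2 lay below ctrl replicate 3, and the other 4 FL1 libraries lay above all of ctrl. Lhcgr was 2.69-fold stronger expressed in FL1 (log2FC 1.43 ± 0.32, adjusted p = 0.0209). It was called in 7 of the 10 fits that left out a library, not without FL1 replicates 3, 4 or 5 (log2FC 1.22 to 1.67 over the 10 fits). Ctrl replicate 5 was the lowest ctrl library for Hsd17b7 and Lhcgr, as for Hmgcs1 and Npc2 below. Whether single animals differed in their position within diestrus was not tested.

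The genes of the progesterone route itself showed no called difference. Star, which delivers cholesterol to the mitochondria, was expressed at 6136, 5011, 6849, 5137 and 7993 CPM in FL1 and 2235, 7697, 6904, 7567 and 6256 CPM in ctrl. The lines overlapped, and ctrl replicate 1 had less than any other library (log2FC 0.02 ± 0.25, adjusted p = 0.981; without ctrl replicate 1 log2FC -0.19). Cyp11a1, the side-chain cleavage enzyme, had 11874 ± 1128 CPM in FL1 and 9748 ± 1599 CPM in ctrl (log2FC 0.28 ± 0.12, adjusted p = 0.23), and Hsd3b1, the 3β-hydroxysteroid dehydrogenase gene, had 7794 ± 772 CPM in FL1 and 7670.1 ± 1926 CPM in ctrl (log2FC 0.02 ± 0.15, adjusted p = 0.967). Akr1c18, the enzyme that inactivates progesterone, had 10084 ± 3172 CPM in FL1 and 13906 ± 3624 CPM in ctrl (log2FC -0.46 ± 0.21, adjusted p = 0.273). The prolactin receptor gene Prlr and the prostaglandin F2α receptor gene Ptgfr had log2FC of 0.25 ± 0.16 and -0.14 ± 0.16 (adjusted p = 0.469 and 0.733). Thus 1 of 20 tested genes of steroid synthesis passed, Hsd17b7, with a median log2FC of -0.07 in the list. Among 21 tested hormone receptor genes 1 rose, Lhcgr, and 1 fell, the adiponectin receptor gene Adipor1 (log2FC -0.36 ± 0.09, adjusted p = 0.0308; called in 3 of the 10 fits that left out a library), and the FSH receptor gene Fshr had 20.3 ± 4.60 CPM in FL1 and 20.05 ± 6.12 CPM in ctrl (log2FC 0.00 ± 0.21, adjusted p = 0.999). Of the 12 luteal markers, 8 had a positive and 4 a negative log2FC, with a median of 0.14 that became 0.01 without ctrl replicate 1.

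Of the 33 tested genes of cholesterol synthesis, uptake and handling 5 rose and 1 fell in FL1, 25 had a positive log2FC, and the median was 0.32 against -0.01 over all genes. Hmgcs1 (chr13:119690379-119708260), an early enzyme of the pathway, was expressed at 1244, 818, 1060.5, 752 and 959 CPM in FL1 and 411, 571, 565, 566 and 288 CPM in ctrl, without overlap and 2.01-fold stronger in FL1 (log2FC 1.01 ± 0.18, adjusted p = 0.00658). The call of Hmgcs1 held whichever library was left out.

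Genes of cholesterol storage and of its passage out of lysosomes changed too. Soat1 (chr1:156424525-156474331), which esterifies cholesterol for storage, had 1726 ± 261.6 CPM in FL1 and 1112 ± 237 CPM in ctrl (log2FC 0.63 ± 0.14, adjusted p = 0.0208). The genes of both proteins that pass cholesterol out of lysosomes went in opposite directions. Npc2 (chr12:84754562-84773152), the soluble partner, was expressed at 901, 915, 914, 858 and 899 CPM in FL1 and 608, 610.1, 709, 551 and 403 CPM in ctrl. FL1 libraries lay close together above all ctrl libraries (log2FC 0.64 ± 0.12, adjusted p = 0.00794). Npc1, the membrane partner, was expressed at 56.2, 47.7, 55.4, 54.3 and 54.8 CPM in FL1 and 88.4, 75.5, 92.5, 84.0 and 78.1 CPM in ctrl, with all FL1 libraries below all ctrl libraries (log2FC -0.64 ± 0.09, adjusted p = 0.000893). Both calls held whichever library was left out. Apoe, a carrier of lipids between cells, had 838 ± 120.2 CPM in FL1 and 622 ± 72.1 CPM in ctrl (log2FC 0.43 ± 0.11, adjusted p = 0.0459). Lrp8, a receptor for apolipoprotein E that was looked at after its value was seen, had 41.8 ± 13.7 CPM in FL1 and 12.3 ± 3.67 CPM in ctrl and no overlap (log2FC 1.76 ± 0.25, adjusted p = 0.00113). The sterol sensor pair Srebf2 and Scap and the uptake receptor Scarb1 did not pass, at log2FC 0.02, 0.27 and -0.11. Soat1 was called in 6 of the 10 fits that left out a library, not without FL1 replicates 1, 3 or 4 or ctrl replicate 2 (log2FC 0.56 to 0.76 over the 10 fits). Apoe was called in 3 of the 10 fits that left out a library, not without FL1 replicates 1, 2 or 5 or ctrl replicates 1, 2, 3 or 4 (log2FC 0.38 to 0.50 over the 10 fits). Of the list, 2 genes rose without FL1 replicate 1, 2 without ctrl replicate 2 and 3 without FL1 replicate 2, 3, 4 or 5. The median log2FC of the list lay between 0.18 without ctrl replicate 5 and 0.48 without ctrl replicate 3. Hmgcs1, Soat1, Npc1, Lrp8, Srebf2, Scap and Scarb1 overlap another annotated gene, and the sources used here do not give the strand setting of the counting.

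Promoters of Hsd17b7 and of called cholesterol genes are shown because these genes rose together in FL1. The 5 genes Hsd17b7, Hmgcs1, Npc2, Soat1 and Apoe were all found by symbol in the RefSeq table of promoters (GRCm38.p6, 250 bases before to 50 after the start). The sequences of the 4 that hold a searched motif run 5′ to 3′ on the strand of the gene, with chr1:169969156-169969455 (minus strand) for Hsd17b7, chr13:119690101-119690400 (plus strand) for Hmgcs1, chr12:84773063-84773362 (minus strand) for Npc2 and chr1:156474279-156474578 (minus strand) for Soat1. Capitals mark, on either strand, the CCAAT box (CCAAT or ATTGG), the core of a sterol regulatory element (CACCCCAC or GTGGGGTG) and a binding motif of nuclear receptors such as NR5A1 and NR5A2 (AAGGTCA or TGACCTT), and none of these overlap each other.
Hsd17b7: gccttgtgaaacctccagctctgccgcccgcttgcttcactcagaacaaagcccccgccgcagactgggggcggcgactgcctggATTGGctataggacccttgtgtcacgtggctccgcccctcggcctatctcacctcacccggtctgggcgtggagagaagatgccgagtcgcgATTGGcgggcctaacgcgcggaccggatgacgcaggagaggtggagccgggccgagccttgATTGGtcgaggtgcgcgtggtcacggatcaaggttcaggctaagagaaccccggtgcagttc
Hmgcs1: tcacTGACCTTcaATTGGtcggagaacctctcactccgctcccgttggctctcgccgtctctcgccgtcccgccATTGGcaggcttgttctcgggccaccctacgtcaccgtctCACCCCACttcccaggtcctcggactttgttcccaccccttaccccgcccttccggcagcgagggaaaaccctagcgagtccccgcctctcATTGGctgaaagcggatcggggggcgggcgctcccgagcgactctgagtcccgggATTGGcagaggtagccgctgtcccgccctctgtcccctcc
Npc2: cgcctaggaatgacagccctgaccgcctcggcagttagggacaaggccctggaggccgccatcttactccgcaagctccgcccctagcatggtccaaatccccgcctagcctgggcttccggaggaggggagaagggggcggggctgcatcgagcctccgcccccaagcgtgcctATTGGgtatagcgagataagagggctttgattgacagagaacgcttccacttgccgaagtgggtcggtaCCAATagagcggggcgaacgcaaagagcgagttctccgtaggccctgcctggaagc
Soat1: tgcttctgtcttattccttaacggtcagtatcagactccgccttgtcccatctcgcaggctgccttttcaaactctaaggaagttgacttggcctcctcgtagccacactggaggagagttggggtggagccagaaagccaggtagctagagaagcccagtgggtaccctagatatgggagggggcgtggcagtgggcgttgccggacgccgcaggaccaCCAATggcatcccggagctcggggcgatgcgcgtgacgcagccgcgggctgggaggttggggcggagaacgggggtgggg
Hsd17b7 has 3 CCAAT boxes, Hmgcs1 has 4 with 1 sterol element core and 1 nuclear receptor motif, Npc2 has 2 and Soat1 has 1, and the 3 promoters listed for Apoe hold none of the motifs. Among all 32851 promoters of the table, 37.4% hold a CCAAT box, 2.87% the sterol element core and 4.72% the nuclear receptor motif. These are matches of letters and not measured binding sites.

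**Figure D2:**
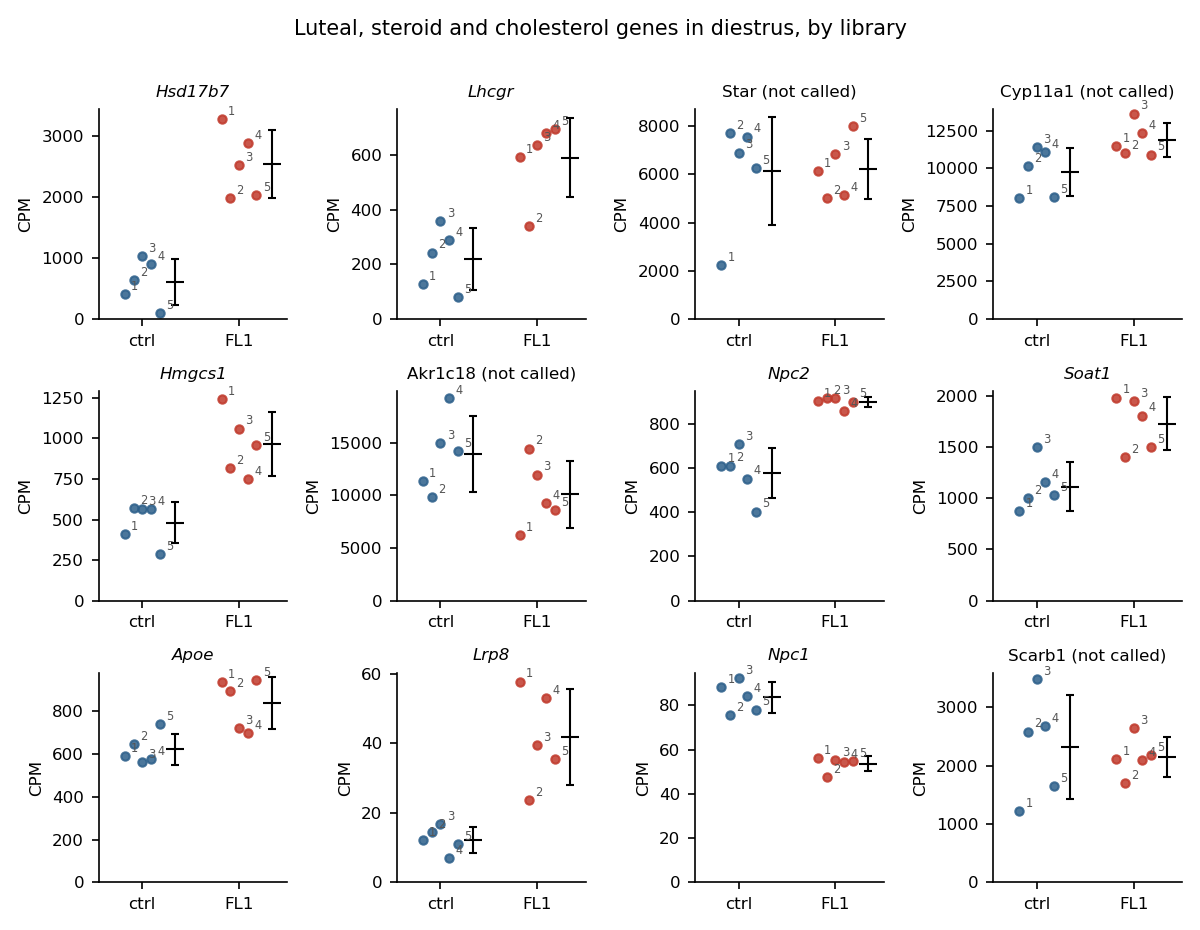
CPM (y axis) of 12 genes in the 5 ctrl and the 5 FL1 diestrus libraries, numbered by replicate, with mean and SD as black marks. All FL1 libraries lie above all ctrl libraries for Hsd17b7, Hmgcs1, Npc2 and Lrp8 and below them for Npc1, while the lines overlap for Star, Cyp11a1, Akr1c18 and Scarb1, which were not called, and Star has its lowest value, 2235 CPM, in ctrl replicate 1.

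Macrophage and myeloid markers had the largest share of called genes among the cell type lists with more than 2 tested members. Of 14 tested genes 5 rose in FL1 and none fell, and the median log2FC was 0.57. Their summed level was 355 to 842 CPM in FL1 and 251.7 to 403 CPM in ctrl. Ctss, a lysosomal protease of antigen-presenting cells, was expressed at 149.6, 99.4, 88.9, 89.1 and 219 CPM in FL1 and 39.7, 43.1, 49.8, 47.4 and 63.0 CPM in ctrl, all FL1 above all ctrl libraries (log2FC 1.41 ± 0.23, adjusted p = 0.00311). Lyz2, the lysozyme of myeloid cells, was expressed at 291, 178, 168, 121 and 405 CPM in FL1 and 71.0, 84.8, 70.1, 81.7 and 162 CPM in ctrl. FL1 replicates 5 and 1 were highest, and ctrl replicate 5 lay above FL1 replicate 4 (log2FC 1.31 ± 0.30, adjusted p = 0.025). Tyrobp, an adaptor of myeloid receptors, had 27.1 ± 7.54 CPM in FL1 and 15.4 ± 2.90 CPM in ctrl, Laptm5 28.0 ± 4.69 CPM in FL1 and 18.02 ± 2.25 CPM in ctrl, and Cd68, a lysosomal marker of macrophages, 18.2 ± 6.06 CPM in FL1 and 10.5 ± 1.02 CPM in ctrl (adjusted p = 0.0279, 0.0209 and 0.0467). These 3 were called in 3, 8 and 1 of the 10 fits that left out a library, where Laptm5 lost its call without FL1 replicate 1 or 5. Ctss was called in all 10. Lyz2 was called in 5 of the 10 fits that left out a library, not without FL1 replicates 1 or 5 or ctrl replicates 2, 3 or 4 (log2FC 1.02 to 1.60 over the 10 fits).

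The receptors that define tissue macrophages had negative values and did not pass. Csf1r, the receptor for the growth factor of macrophages, was expressed at 22.6, 18.7, 22.03, 17.5 and 20.3 CPM in FL1 and 28.6, 34.1, 32.3, 18.1 and 33.7 CPM in ctrl and was below the ctrl mean in every FL1 library, without passing the test (log2FC -0.54 ± 0.16, adjusted p = 0.0848). Adgre1 (F4/80) had 10.6 ± 3.07 CPM in FL1 and 13.5 ± 4.26 CPM in ctrl (log2FC -0.37 ± 0.24, adjusted p = 0.468) and the mannose receptor gene Mrc1 a log2FC of -0.36 ± 0.22 (adjusted p = 0.425). Cd163 and S100a8 of the 16 listed genes did not pass the filter on low counts. Without FL1 replicate 1 or FL1 replicate 5, 1 gene of the list rose, and 2 genes of the list rose without ctrl replicate 2, 3 or 4 (1 fell without ctrl replicate 4) and 3 without ctrl replicate 1. Lyz2 has a copy that shares its 3′ end, so its reads may be split. Of the lymphocyte markers, 2 of 12 passed the filter on low counts, and edgeR called none of them (1 higher and 0 lower at an unadjusted p under 0.05; DESeq2 called 1 and limma-voom 0).

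Mmp12 and Gpnmb rose in FL1. Mmp12, the macrophage elastase, was expressed at 14.9, 11.0, 13.1, 18.8 and 21.98 CPM in FL1 and 1.60, 3.15, 1.501, 5.92 and 5.07 CPM in ctrl, without overlap (log2FC 2.24 ± 0.35, adjusted p = 0.00222). Gpnmb, a glycoprotein of lysosomes and melanosomes, was expressed at 60.5, 29.4, 25.8, 24.6 and 153 CPM in FL1 and 12.4, 9.99, 7.96, 11.3 and 17.4 CPM in ctrl. FL1 replicate 5 was far above the other FL1 libraries, and all of these were above ctrl (log2FC 2.30 ± 0.47, adjusted p = 0.0123; log2FC 1.57 at least in any fit that left out a library). Of the chemokine list 2 of 16 tested genes rose, Ccl6 (log2FC 1.21 ± 0.20, adjusted p = 0.00292) and the receptor gene Cxcr4 (log2FC 1.49 ± 0.22, adjusted p = 0.00139), and 1 fell, Cxcl14. Cxcl14 was expressed at 95.3, 122, 89.4, 92.1 and 93.2 CPM in FL1 and 164, 167, 180.5, 138 and 302 CPM in ctrl, with ctrl replicate 5 the highest (log2FC -0.95 ± 0.18, adjusted p = 0.00759; log2FC -0.72 without ctrl replicate 5). The integrin gene Itgb2 and the inhibitory Fc receptor gene Fcgr2b, both looked at after their values were seen, had 8.38 against 2.90 CPM and 16.5 against 5.61 CPM in FL1 and ctrl (adjusted p = 0.0097 and 0.00296). The part of the macrophage markers in these changes was not tested.

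**Figure D3:**
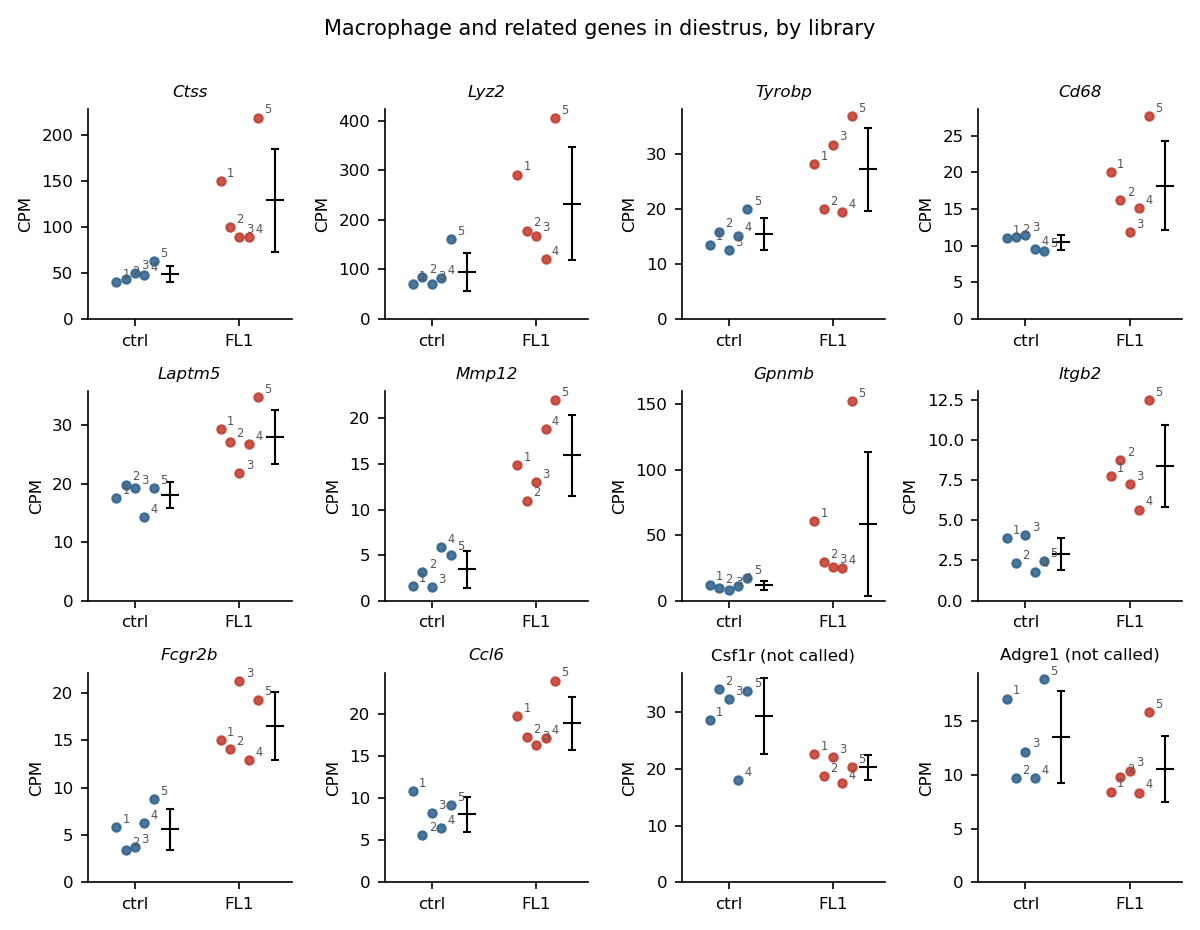
CPM (y axis) of 12 macrophage and related genes in the 5 ctrl and the 5 FL1 diestrus libraries, numbered by replicate, with mean and SD as black marks. FL1 replicate 5 is the highest FL1 library for Ctss, Lyz2, Tyrobp, Cd68, Laptm5, Mmp12, Gpnmb, Itgb2 and Ccl6, while Csf1r, at 20.2 CPM in FL1 and 29.3 CPM in ctrl, and Adgre1 were not called.

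A list of 51 lysosomal genes written after the values were seen gave 11 called genes stronger and 6 weaker expressed in FL1. It is a description and no support for a direction. Besides Ctss, Gpnmb and Npc2, the proteases Ctsk and Ctsd (log2FC 1.30 and 0.50), the peptidase Dpp7 (0.77) and the proton pump subunit Atp6v0d2 (0.97) rose. Besides Npc1, the hydrolases Glb1 and Man2b1 (log2FC -0.63 and -0.47), the protease Lgmn (-0.77) and the chloride channel gene Clcn7 (-0.66) fell. Of these, Ctsk, Ctsd, Man2b1, Lgmn and Clcn7 were called in 4, 2, 7, 1 and 3 of the 10 fits that left out a library, Man2b1 not without FL1 replicate 2 or 4 or ctrl replicate 3. Over the list, 6 genes rose and 4 fell without FL1 replicate 1, 3 or 5, 8 and 2 without FL1 replicate 4, 10 and 3 without FL1 replicate 2, 7 and 6 without ctrl replicate 1, 7 and 4 without ctrl replicate 2, 10 and 4 without ctrl replicate 3, 7 and 5 without ctrl replicate 4 and 8 and 4 without ctrl replicate 5. Lamp1 and Ctsb, found in lysosomes of most cells, had log2FC of 0.00 and -0.01 and did not pass.

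In the TGF-beta family, called genes included a ligand trap, a receptor and a transducer. Of 40 tested genes, 3 rose and 2 fell (12.5%, against 4.11% over all genes). Grem1, which binds and blocks BMPs, was expressed at 3.01, 6.799, 7.08, 7.36 and 8.83 CPM in FL1 and 10.5, 22.2, 12.3, 14.3 and 70.4 CPM in ctrl, below ctrl in every FL1 library, with ctrl replicate 5 well above all others (log2FC -1.97 ± 0.49, adjusted p = 0.037). Grem1 was called in 4 of the 10 fits that left out a library, not without FL1 replicates 1, 2, 3, 4 or 5 or ctrl replicate 2 (log2FC -2.18 to -1.16 over the 10 fits). The transducer gene Smad1 and the receptor gene Tgfbr1 rose without overlap, at 84.6 ± 13.1 CPM in FL1 and 48.5 ± 6.57 CPM in ctrl for Smad1 (log2FC 0.81 ± 0.13, adjusted p = 0.0022) and 104 ± 20.3 CPM in FL1 and 61.8 ± 7.24 CPM in ctrl for Tgfbr1 (log2FC 0.74 ± 0.13, adjusted p = 0.00487). Ltbp1, which holds latent TGF-beta in the matrix, had a log2FC of 0.64 ± 0.16 (adjusted p = 0.0436) and shares its 3′ end with 7 other annotated genes. It was called in 2 of the 10 fits that left out a library, not without FL1 replicates 1, 2, 3, 4 or 5 or ctrl replicates 2, 3 or 4 (log2FC 0.51 to 0.75 over the 10 fits). The inhibin subunit gene Inha did not pass (log2FC -0.07 ± 0.14, adjusted p = 0.85), with its highest value, 2328 CPM, in ctrl replicate 1.

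Of 26 tested WNT genes 2 rose (7.69%, against 4.11% over all genes), the receptor gene Fzd4 and the ligand gene Wnt5b. Fzd4 (chr7:89404355-89413134), a receptor needed for a normal corpus luteum in mice, was expressed at 79.7, 54.9, 76.9, 88.6 and 84.9 CPM in FL1 and 36.6, 45.1, 49.5, 37.7 and 37.7 CPM in ctrl. All FL1 libraries lay above all ctrl libraries (log2FC 0.90 ± 0.13, adjusted p = 0.00153). Wnt5b had 15.0 ± 1.13 CPM in FL1 and 8.34 ± 2.25 CPM in ctrl (log2FC 0.85 ± 0.19, adjusted p = 0.0209), and Sfrp4, a secreted WNT inhibitor of luteal cells, had 3961 ± 808 CPM in FL1 and 5119 ± 985 CPM in ctrl without passing (log2FC -0.37 ± 0.15, adjusted p = 0.22). Wnt5b was called in 8 of the 10 fits that left out a library, not without FL1 replicate 1 or ctrl replicate 2 (log2FC 0.73 to 0.99 over the 10 fits).

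In the KIT, PI3K and FOXO list 2 of 27 tested genes fell and none rose (edgeR; 3 higher and 5 lower at an unadjusted p under 0.05). This share of 7.41% called is to be read against 4.11% over all genes. Kit, the receptor on oocytes and theca cells, was expressed at 13.5, 7.71, 9.76, 7.36 and 3.83 CPM in FL1 and 16.4, 20.2, 17.4, 17.6 and 38.1 CPM in ctrl, with ctrl replicate 5 highest and FL1 replicate 5 lowest (log2FC -1.37 ± 0.30, adjusted p = 0.0188). It was called in 9 of the 10 fits that left out a library, not without FL1 replicate 4 (log2FC -1.61 to -1.08 over the 10 fits). The ligand gene Kitl ranged in ctrl from 12.7 to 69.5 CPM, and did not pass (log2FC 0.30 ± 0.46, adjusted p = 0.797). Eif4ebp1, a brake on translation, was the other called gene (log2FC -0.42 ± 0.11, adjusted p = 0.0487), called in 2 of the 10 fits that left out a library. DESeq2 called 2 and limma-voom 2 genes of the list.

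Of 17 tested prostaglandin genes 1 rose and 1 fell (11.8%, against 4.11% over all genes), an enzyme of synthesis and an enzyme of breakdown. Hpgd (chr8:56294585-56321043), the enzyme that inactivates prostaglandins, was expressed at 14.5, 11.9, 14.6, 22.5 and 15.5 CPM in FL1 and 48.2, 33.0, 33.3, 49.3 and 41.8 CPM in ctrl. Every FL1 library was below every ctrl library, 2.61-fold on average (log2FC -1.38 ± 0.18, adjusted p = 0.000476). Ptges, a prostaglandin E synthase, was expressed at 116, 120.0, 138, 210.4 and 113 CPM in FL1 and 89.3, 96.2, 81.2, 83.4 and 75.0 CPM in ctrl, with FL1 replicate 4 the highest and no overlap (log2FC 0.71 ± 0.15, adjusted p = 0.0179). Both calls held whichever library was left out. The receptor gene of thrombin, F2r, fell within the list of proteases and plasminogen activation, with 55.9 ± 13.2 CPM in FL1 and 116 ± 41.5 CPM in ctrl (log2FC -1.05 ± 0.22, adjusted p = 0.014), while the thrombin inhibitor Serpine2 (log2FC 0.49 ± 0.12, adjusted p = 0.0391) and the sheddase Adam17 (log2FC 0.37 ± 0.10, adjusted p = 0.0437) rose, so that 3 of 23 genes of that list passed. Serpine2 and Adam17 were called in 2 and 1 of the 10 fits that left out a library.

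**Figure D4:**
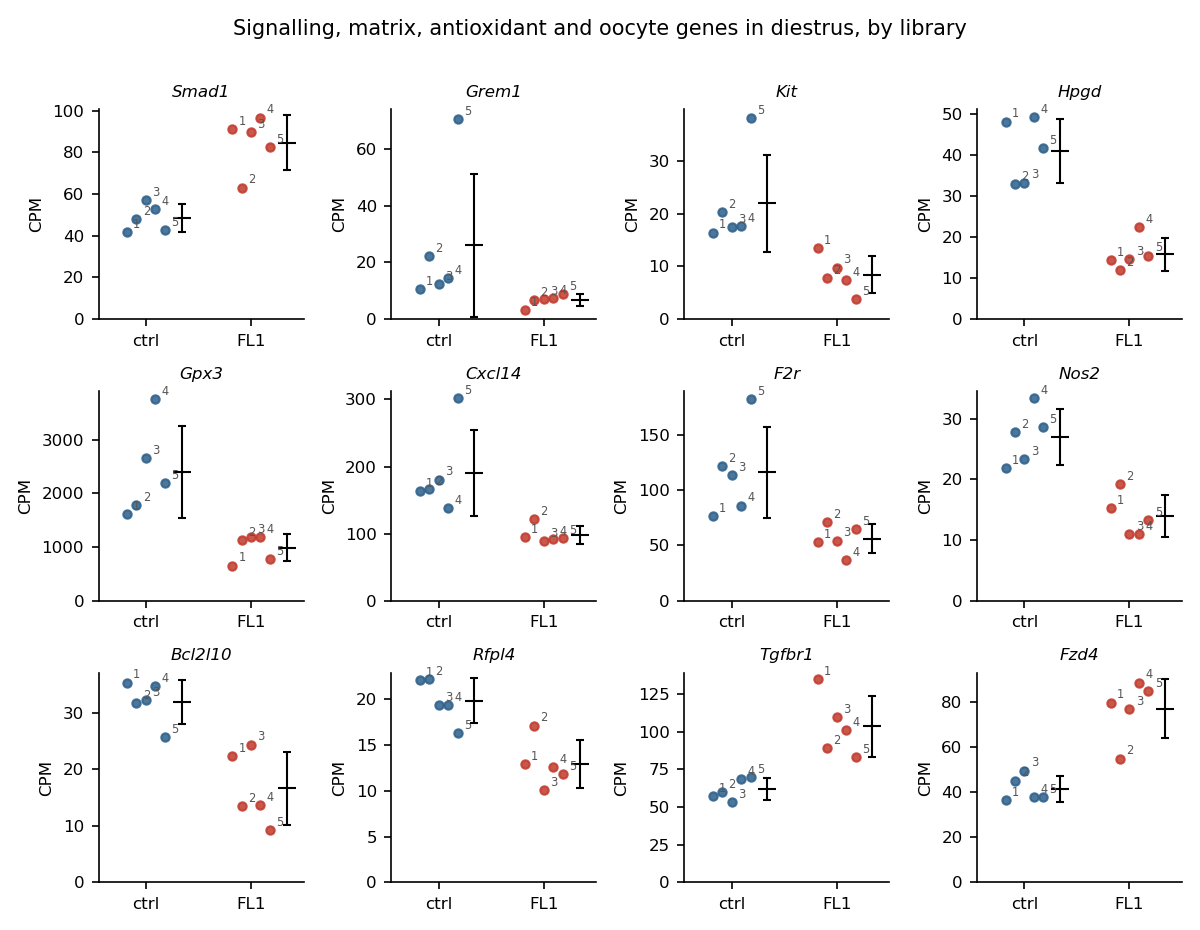
CPM (y axis) of 12 genes in the 5 ctrl and the 5 FL1 diestrus libraries, numbered by replicate, with mean and SD as black marks. All were called. FL1 lies below ctrl without overlap for Grem1, Kit, Hpgd, Gpx3, Cxcl14, F2r, Nos2 and Bcl2l10 and above it for Smad1, Tgfbr1 and Fzd4, and ctrl replicate 5 is the highest library for Grem1 (70.4 CPM), Kit, Cxcl14 and F2r.

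Of 28 tested oocyte markers 2 fell, none rose and 26 did not pass (edgeR; 0 higher and 4 lower at an unadjusted p under 0.05; DESeq2 called 2 and limma-voom 2). The share of 7.14% called is to be read against 4.11% over all genes, and the median log2FC was -0.24 with 23 negative values. Their summed levels, given above, overlapped between the lines. None was called without FL1 replicate 4 or in the fit of all 20 libraries, and 1 in each other fit that left out a library except that without ctrl replicate 5, which called 2. Bcl2l10, a survival factor of oocytes, was expressed at 22.3, 13.5, 24.4, 13.7 and 9.32 CPM in FL1 and 35.4, 31.7, 32.3, 34.7 and 25.7 CPM in ctrl, without overlap (log2FC -0.94 ± 0.22, adjusted p = 0.0235). Rfpl4, an oocyte-specific ring finger gene, had 12.9 ± 2.605 CPM in FL1 and 19.9 ± 2.42 CPM in ctrl (log2FC -0.62 ± 0.16, adjusted p = 0.0428). The zona pellucida genes Zp3 and Zp2 did not pass, at log2FC -0.07 ± 0.21 and -0.01 ± 0.22, and Gdf9 and Bmp15, the growth factors oocytes send to granulosa cells, had -0.36 ± 0.21 and -0.44 ± 0.23 (adjusted p = 0.426 and 0.331). Bcl2l10 was called in 8 of the 10 fits that left out a library, not without FL1 replicates 2 or 4 (log2FC -1.12 to -0.79 over the 10 fits). Rfpl4 was called in 2 of the 10 fits that left out a library, not without FL1 replicates 1, 3, 4 or 5 or ctrl replicates 1, 2, 3 or 4 (log2FC -0.75 to -0.55 over the 10 fits). A fit of all 20 libraries called neither.

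Among the somatic cell types, 2 of 19 granulosa markers rose, Foxl2 (log2FC 0.53 ± 0.11, adjusted p = 0.0132), which codes for a transcription factor that keeps granulosa identity, and the imprinted gene Nap1l5 (log2FC 0.84 ± 0.15, adjusted p = 0.0059). In the paper's quantitative PCR of diestrus ovaries, however, Foxl2 had a small negative value without a mark of significance. That PCR gave Lhcgr, Kit, Smad1, Cxcr4, F2r and Rora the direction reported here, each with a mark of significance. The granulosa genes Fshr, Inha, Hsd17b1 and Cyp19a1 did not pass, the last 2 at log2FC -0.14 and 0.46. Of 20 endothelial markers 1 rose (5%, near the 4.11% over all genes), Egfl7 (log2FC 0.65 ± 0.11, adjusted p = 0.00528). Of 12 surface epithelium markers 1 fell, Upk1b, expressed at 6.01, 1.31, 2.20, 2.83 and 2.997 CPM in FL1 and 25.0, 2.05, 23.1, 18.1 and 8.91 CPM in ctrl. Ctrl replicate 2 was as low as FL1 (log2FC -2.33 ± 0.54, adjusted p = 0.0241), and Upk3b, the first marker of that list, had 42.2 ± 9.91 CPM in FL1 and 41.2 ± 13.3 CPM in ctrl. Upk1b was called in 5 of the 10 fits that left out a library, not without FL1 replicates 2, 3, 4 or 5 or ctrl replicate 3 (log2FC -2.74 to -2.08 over the 10 fits). EdgeR called none of 9 theca markers (1 higher and 1 lower at an unadjusted p under 0.05; DESeq2 called 0 and limma-voom 0), none of 11 stromal markers (2 higher and 2 lower at an unadjusted p under 0.05; DESeq2 called 1 and limma-voom 1) and none of 14 smooth muscle markers (1 higher and 1 lower at an unadjusted p under 0.05; DESeq2 called 0 and limma-voom 0). It called none of 4 oviduct markers (1 higher and 1 lower at an unadjusted p under 0.05; DESeq2 called 1 and limma-voom 0) or of 4 fat markers (1 higher and 0 lower at an unadjusted p under 0.05; DESeq2 called 0 and limma-voom 0). The theca enzyme gene Cyp17a1 was expressed at 164, 289, 189.6, 196 and 142 CPM in FL1 and 975, 234, 166, 167 and 492 CPM in ctrl (log2FC -1.06 ± 0.42, adjusted p = 0.193), with ctrl replicates 1 and 5 above all other libraries. Of 6 blood genes 1 rose, the globin gene Hba-a2, which shares its 3′ end with its copy Hba-a1, while Hba-a1 and Hbb-bs had log2FC of 0.13 and 0.42. Summed blood genes ranged from 1275 to 3524 CPM in FL1 and 441 to 2814 CPM in ctrl, and leaving blood and mitochondrial genes out of the fit gave 549 called genes.

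Some genes of antioxidant defence and lipid use were called. In the glutathione and antioxidant list 2 of 39 tested genes rose and 3 fell (12.8%, against 4.11% over all genes). Gpx3 (chr11:54902453-54910377), the secreted glutathione peroxidase, was expressed at 654, 1124, 1191, 1188 and 782 CPM in FL1 and 1616, 1773, 2652, 3748 and 2190.3 CPM in ctrl, with no overlap and the widest spread in ctrl (2.43-fold lower, log2FC -1.28 ± 0.22, adjusted p = 0.00525). Gsta4, which conjugates lipid peroxidation products, fell (log2FC -0.81 ± 0.11, adjusted p = 0.00103), as did Gpx8 (log2FC -0.56 ± 0.11, adjusted p = 0.011). Cat, the peroxisomal catalase, rose with 207 ± 40.99 CPM in FL1 and 121 ± 31.9 CPM in ctrl (log2FC 0.77 ± 0.17, adjusted p = 0.0222), and so did Txnrd1 (log2FC 0.32 ± 0.08, adjusted p = 0.0336; called in 4 of the 10 fits that left out a library). Of 32 tested genes of fatty acid oxidation and lipid droplets 28 had a positive log2FC with a median of 0.15. Of these genes 2 rose (6.25%, near the 4.11% over all genes). These were Acaa2, the thiolase of mitochondrial β-oxidation (357 ± 52.5 CPM in FL1 and 234 ± 25.4 CPM in ctrl; log2FC 0.60 ± 0.11, adjusted p = 0.0062), and Dgat2, which makes triglyceride (17.4 ± 9.45 CPM in FL1 and 5.95 ± 2.71 CPM in ctrl; log2FC 1.55 ± 0.37, adjusted p = 0.029). The lipid droplet gene Plin2 and the fatty acid carriers Fabp5 and Cd36 had log2FC of 0.35, 0.60 and 0.52 and did not pass (adjusted p = 0.112, 0.0741 and 0.0858). Cat was called in 7 of the 10 fits that left out a library, not without FL1 replicates 1, 3 or 4 (log2FC 0.67 to 0.89 over the 10 fits). Dgat2 was called in 4 of the 10 fits that left out a library, not without FL1 replicates 1, 3 or 5 or ctrl replicates 1, 4 or 5 (log2FC 1.19 to 1.80 over the 10 fits). In each of these fits without a call of Dgat2, 1 gene of the lipid list rose, and limma-voom called 1.

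Interferon-stimulated genes had the lowest median of the 28 pathway lists. Of 29 tested genes 25 had a negative log2FC with a median of -0.37, but edgeR called none (0 higher and 10 lower at an unadjusted p under 0.05; DESeq2 called 3 and limma-voom 1). Irf7, the inducer of interferon genes, was expressed at 5.58, 7.98, 6.14, 1.84 and 6.49 CPM in FL1 and 7.64, 22.7, 17.3, 8.06 and 11.2 CPM in ctrl. The lines overlapped, with ctrl replicates 2 and 3 highest (log2FC -1.25 ± 0.37, adjusted p = 0.0744). Isg15 and Usp18 had log2FC of -1.08 ± 0.39 and -1.32 ± 0.46 (adjusted p = 0.151 and 0.143). The median lay between -0.51 without FL1 replicate 5 and -0.18 without ctrl replicate 2, and 4 genes fell without ctrl replicate 1, 2 without ctrl replicate 4, 1 without ctrl replicate 5 and 2 with the replicate block. Among 23 tested MHC and antigen processing genes 1 rose and 3 fell. H2-D1, a classical class I gene, rose (log2FC 1.35 ± 0.34, adjusted p = 0.0391), H2-T22 fell (log2FC -1.82 ± 0.27, adjusted p = 0.00156), and H2-Q10 had no count in any FL1 library and 13.2, 4.79, 4.95, 4.27 and 6.61 CPM in ctrl, at least 13.5-fold lower in FL1 when 3 counts per library are taken as the floor. H2-D1 shares its 3′ end with 16 other annotated genes and H2-T22 with 1, so their reads may be split. Over the list, 3 genes rose and 2 fell without ctrl replicate 2, and none rose without FL1 replicate 1, 2, 3 or 4 or ctrl replicate 1 or 4. H2-D1 was called in 3 of the 10 fits that left out a library, H2-T22 in all 10. In the interferon list edgeR called 4 weaker expressed genes without ctrl replicate 1, 2 without ctrl replicate 4 and 1 without ctrl replicate 5.

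Of 79 tested nuclear genes of oxidative phosphorylation 2 rose, Cox5a (log2FC 0.50 ± 0.08, adjusted p = 0.00277) and Sdhc (log2FC 0.31 ± 0.07, adjusted p = 0.0347), and 4 fell, Ndufb10 (log2FC -0.44 ± 0.08, adjusted p = 0.00629), Ndufa12 (-0.63), Ndufa13 (-0.35) and Sdhd (-1.09), with a median of -0.07 over the list. The share called was 7.59%, against 4.11% over all genes. Sdhc, Ndufa12, Ndufa13 and Sdhd were called in 4, 6, 3 and 2 of the 10 fits that left out a library, Ndufa12 not without FL1 replicate 1, 3 or 5 or ctrl replicate 2. Over the list, 1 gene rose and 1 fell without FL1 replicate 1, 3 or 5, without ctrl replicate 2 and in the fit of all 20 libraries, and 1 rose and 2 fell without FL1 replicate 4 or ctrl replicate 4. The 7 tested mitochondrially encoded genes all had a negative log2FC (median -0.27), and mt-Cytb fell (log2FC -0.56 ± 0.12, adjusted p = 0.0147), beside the mitochondrial shares given above. On leaving out a library, their median lay between -0.45 without ctrl replicate 1 and -0.14 without ctrl replicate 5. Of 75 cytosolic ribosomal protein genes 57 had a negative log2FC with a median of -0.14. The 5 that fell, Rpl29, Rpl32, Rpl35a, Rps2 and Rpl7a, each share their 3′ end with between 3 and 71 other annotated genes, so that a read can be lost to a copy, and their values are uncertain.

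The largest changes without overlap, among protein-coding genes with a mean of at least 5 CPM, were mostly outside the lists. Zpld1 (chr16:55225175-55297986), a gene with a zona pellucida-like domain, was expressed at 260.6, 142, 217, 212 and 156 CPM in FL1 and 2.83, 0.684, 3.15, 8.22 and 4.61 CPM in ctrl, 52.3-fold stronger in FL1 (log2FC 5.71 ± 0.35, adjusted p = 5.52e-07). Cldn18 (chr9:99689461-99717267), a tight junction protein, was expressed at 175, 195, 162, 232 and 79.1 CPM in FL1 and 11.5, 8.34, 3.60, 36.01 and 1.38 CPM in ctrl. Ctrl replicate 4 was the highest ctrl library, yet below all of FL1 (log2FC 3.81 ± 0.55, adjusted p = 0.00128). The synaptic vesicle gene Sv2c (log2FC 2.59), Lamtor3 (2.31), a scaffold of MAPK and mTORC1 signalling with a copy that shares its 3′ end, and Hal (2.18) followed, beside Hba-a2, Gpnmb and Mmp12. Hal codes for the first enzyme of histidine breakdown, and Amdhd1, its neighbour on chromosome 10 and a later enzyme of the same pathway, rose alike (24.5 ± 8.68 CPM in FL1 and 5.53 ± 3.13 CPM in ctrl; log2FC 2.12 ± 0.37, adjusted p = 0.00505), as seen after the values were known.

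On the other side, Gal3st2c (chr1:93990509-94017147), a galactose sulfotransferase gene, was expressed at 0.859, 0.654, 1.10, 0.708 and 0.833 CPM in FL1 and 20.2, 102, 65.9, 85.8 and 106 CPM in ctrl, 90.1-fold weaker in FL1 (log2FC -6.49 ± 0.47, adjusted p = 3.03e-06). FL1 libraries were all near 1 CPM, while ctrl replicate 1 was the lowest ctrl library. Wfdc10, a gene with a protease inhibitor domain, had 2.40 ± 1.09 CPM in FL1 and 44.99 ± 22.9 CPM in ctrl (log2FC -4.20 ± 0.35, adjusted p = 8.89e-06), and Ifi202b, an interferon-inducible DNA sensor, had 5.89 ± 2.55 CPM in FL1 and 93.9 ± 56.9 CPM in ctrl (log2FC -3.98 ± 0.42, adjusted p = 7.9e-05). The nucleotide pyrophosphatase gene Enpp3 (log2FC -2.70) and 1810024B03Rik (-2.71) followed, beside the ribosomal genes Rpl29, Rps2 and Rpl35a named above. The calls of these 16 genes held whichever library was left out. By limma-voom with sample weights, Hba-a2 (adjusted p = 0.0873) and Rps2 (adjusted p = 0.0755) did not pass. Rps2 had 13.1 CPM in ctrl replicate 3, close to the highest FL1 library at 11.8 CPM. Among the called genes named above and below, Ctss, Mmp12, Ccl6, Fcgr2b, Ctsd, Glb1, Ltbp1, Wnt5b, Hpgd, Ptges, Adam17, Foxl2, Nap1l5, Egfl7, Gpx8, Txnrd1, H2-T22, Cox5a, Ndufa13, Rpl32, Rpl35a, Rps2, Rpl7a, Cldn18, Sv2c, Wfdc10, Rora, Insr, C2, Hspg2, Slc30a1, Plcb4 and Klf3 also overlap another annotated gene, and reads of overlapping genes may be shared between them.

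The remaining lists held few called genes. In 25 tested immediate early genes 3 rose, Klf2 (log2FC 0.58 ± 0.11, adjusted p = 0.00862), the phosphatase gene Dusp6 (log2FC 0.56 ± 0.15, adjusted p = 0.0446) and Ier5 (log2FC 0.43 ± 0.11, adjusted p = 0.0489). Klf2, like Foxl2, had a small negative value without a mark of significance in the paper's quantitative PCR in diestrus. Of 10 tested renin-angiotensin genes 2 rose, among them Ctsd (log2FC 0.50 ± 0.13, adjusted p = 0.0435), with a list median of -0.09. None of this list rose without FL1 replicate 1, 3 or 5 or ctrl replicate 4 or 5. With the replicate block, none rose and 1 fell. A single gene passed in each of 8 further lists. Stronger expressed were Rora of the 10 morning-phase clock genes (log2FC 0.67 ± 0.14, adjusted p = 0.0119), Insr of the 13 genes of insulin-like growth factors (log2FC 0.47 ± 0.12, adjusted p = 0.0385), the apoptosis inducer Bbc3 of 28 (log2FC 1.00 ± 0.22, adjusted p = 0.0177), the complement gene C2 of 17 (log2FC 0.75 ± 0.19, adjusted p = 0.0382) and Nap1l5 of 25 imprinted genes. Weaker expressed were Mcm6, a subunit of the replicative helicase, of 39 cell cycle genes (log2FC -0.57 ± 0.11, adjusted p = 0.00978), the basement membrane gene Hspg2 of 33 matrix genes (log2FC -0.63 ± 0.14, adjusted p = 0.0207), of which 27 had a negative log2FC, and the inducible nitric oxide synthase Nos2 of 14 (log2FC -0.94 ± 0.18, adjusted p = 0.00782). Hspg2 lost its call without FL1 replicate 4, and Dusp6, Ier5, Ctsd, Insr and C2 were called in 2, 2, 2, 2 and 3 of the 10 fits that left out a library. EdgeR called none of 10 evening-phase clock genes (0 higher and 0 lower at an unadjusted p under 0.05; DESeq2 called 0 and limma-voom 0) and none of 13 genes of cumulus expansion and ovulation (2 higher and 2 lower at an unadjusted p under 0.05; DESeq2 called 0 and limma-voom 0).

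Whether these differences belong to diestrus was asked by the interaction of line and stage in a model of all 20 libraries, which tests the line effect in diestrus against that in estrus. It passed for 8 of 14154 genes (0.0565%), while the estrus comparison called 311 of 13374 genes (2.33%). At an unadjusted p under 0.05 the interaction had 1654 genes (11.7%). Of the 545 genes called in diestrus, 524 were tested in estrus, 435 had the same sign there and 93 were called there too. The share of same signs over all genes tested in both stages was not computed.  Olfml2b, a secreted matrix protein gene, was expressed in diestrus at 28.8, 34.4, 40.3, 27.0 and 36.3 CPM in FL1 and 60.1, 77.01, 82.6, 80.9 and 67.5 CPM in ctrl and fell by 1.14 on the log2 scale, against 0.18 in estrus (interaction -1.33, adjusted p = 0.0351). Its values did not overlap between the lines in diestrus. The zinc exporter gene Slc30a1 rose in diestrus (log2FC 0.90, against -0.24 in estrus, interaction adjusted p = 0.036), and so did the phospholipase gene Plcb4 (log2FC 0.56, against -0.41, interaction adjusted p = 0.036) and the transcription factor gene Klf3 (log2FC 0.57, against -0.38, interaction adjusted p = 0.0328). In diestrus, Plcb4 was called in 2 of the 10 fits that left out a library. Without diestrus FL1 replicate 3, FL1 replicate 4 or ctrl replicate 4, edgeR called 0 interaction genes (1477, 1452 and 1491 at an unadjusted p under 0.05). It called 1 without ctrl replicate 2, 2 without FL1 replicate 1, 5 without ctrl replicate 3 and 13 without FL1 replicate 2, while DESeq2 called 148 and limma-voom 31 over all libraries. The other 4 genes, Tns4, Taok1, Echdc2 and Gm15866, were not called in diestrus, with log2FC of 1.29, 0.32, -0.39 and 0.24.

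The luteal and cholesterol genes had estrus log2FC of -0.09 for Hsd17b7, 0.13 for Hmgcs1, -0.08 for Npc2, 0.01 for Soat1 and 0.53 for Lhcgr, and their interaction did not pass (adjusted p = 0.142, 0.298, 0.166, 0.163 and 0.387). Hsd17b7 itself had 59.5 CPM in FL1 and 63.8 CPM in ctrl in estrus. The macrophage genes Ctss and Lyz2 had log2FC of 1.08 and 1.10 in estrus, and Gpnmb and Ccl6 of 2.66 and 1.63, all called there too.

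**Figure D5:**
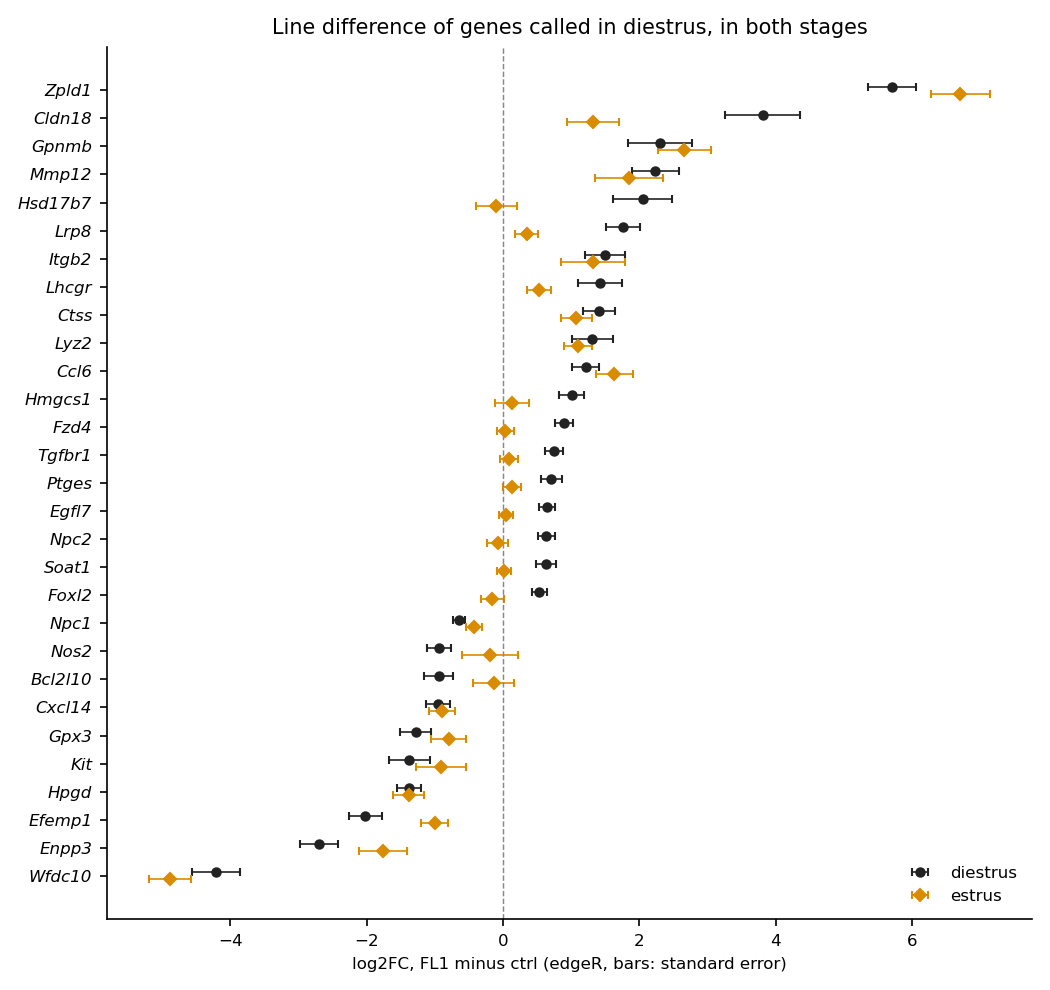
Log2FC (x axis, FL1 minus ctrl, edgeR, bars are standard errors) of 29 genes called in diestrus, in diestrus (black circles) and in estrus (orange diamonds). Zpld1, Wfdc10, Hpgd, Ctss and Gpnmb were called in both stages, while Hsd17b7 is at 2.05 in diestrus and -0.09 in estrus, a difference whose interaction did not pass (adjusted p = 0.142).

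Called genes also lay side by side on chromosomes. Hsd17b7 opens a stretch of chromosome 1, from 169949535 to 171150603 in GRCm38, where 7 of 15 tested genes were called, 5 stronger (among them Hsd17b7, Uap1, Fcgr2b and Sdhc) and 2 weaker expressed. On chromosome 3, from 90537254 to 93526287, 6 of 8 tested genes between S100a16 and S100a11 were called, 1 stronger and 5 weaker expressed. S100a11 was stronger expressed (log2FC 1.34 ± 0.15, adjusted p = 0.000148), and S100a6, expressed at 1951, 3848, 3517, 3231 and 3184 CPM in FL1 and 3513, 6932, 5998, 7602 and 7503 CPM in ctrl, was weaker expressed (log2FC -1.01 ± 0.21, adjusted p = 0.0127). Of 11 tested S100 genes, a list written after the values were seen, 1 rose and 3 fell, and 1 fell without FL1 replicate 4 or ctrl replicate 4. In a stretch of chromosome 6, from 71128166 to 72439558, 7 of 23 tested genes were called, 4 higher and 3 lower, with Thnsl2 the most changed (log2FC -2.66 ± 0.21, adjusted p = 7.58e-06). Uap1 and S100a16 were called in 5 and 7 of the 10 fits that left out a library, S100a16 not without FL1 replicate 4 or ctrl replicate 3 or 4. The stretches were chosen for their calls and carry no test.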

How the data were processed

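Ovaries of 20 mice were profiled by 3′ mRNA sequencing, 1 library per animal, of which the 10 diestrus libraries enter the comparison and the 10 estrus libraries the stage interaction. After trimming, the authors mapped reads to GRCm38 using STAR and deposited raw read counts per Ensembl gene, 1 file per library. The counting program and its strand setting are not given in the sources used here. Reads come from the 3′ end of transcripts, so that levels are compared within a gene only. Line and stage were taken from the sample titles. A further label, the source name, gives FL1 also for control libraries and was not used.

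Genes were kept by filterByExpr (minimum count 10), scaled by TMM and tested by the quasi-likelihood F-test of edgeR 4.0.16 (R 4.3.3) within diestrus, with the threshold at 0.05 after Benjamini-Hochberg adjustment. A second model over all 20 libraries gave the line-by-stage interaction. DESeq2 1.42.0, limma-voom (limma 3.58.1), other size factors, other filters, a replicate block and leaving out each library were alternatives. The test was also run on simulated data with known changes. There edgeR recovered 71 of 100 changes of log2 size 1 and 91 of 100 of log2 size 1.5, with 8 other calls. A gene that did not pass may therefore still differ. Depth was 5991223 to 10352718 counts, and p-values measure the spread between animals of each line. Ensembl identifiers were matched to GENCODE names and positions for 54809 of 54838 genes, and 29 had no match. A 3′ end was called shared when at least 50 words of 31 nt of its last 300 nt occurred in another gene.

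The comparison, the lists and the rule for named genes were chosen with earlier results of these data known. The rule took the 8 largest changes per direction among called protein-coding genes with a mean of at least 5 CPM and no overlap, up to 4 called and the first 2 genes of each list, and genes with a called interaction, 152 genes in all. Other genes named in the text, such as Lrp8, Apoe, Cd68, Ltbp1, Irf7, Gdf9, Plin2, Amdhd1, Thnsl2, the S100 genes and the further lysosomal genes, were chosen after their values were seen. Some genes are not reported here.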

Additional observations from a re-analysis of the deposited data

Results flagged for a closer look

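Within a line, single libraries lay far from the other 4 by Dixon's criterion in 25 of 290 groups (a named gene in a line, with at least 1 CPM in a library). The criterion gives about 1 in 20 for independent, normally distributed values. CPM values of genes that share the same libraries are not independent, so the count is not read as an excess over chance. Ctrl replicate 5 was high for Cxcl14 (302 CPM), Lyz2 (162 CPM), Grem1 (70.4 CPM), Kit (38.1 CPM), Mmp9 (15.98 CPM) and Hba-a2 (8.45 CPM), and for the share of mitochondrial counts (6.90%). Ctrl replicate 1 was high for Inha (2328 CPM), Agt (152 CPM), Wfdc10 (84.8 CPM) and H2-Q10 (13.2 CPM), low for Star (2235 CPM), and had the most counts (10352718) and the most genes with a count (19737). Ctrl replicate 3 was high for the clock gene Arntl (14.0 CPM) and the T cell gene Cd3d (2.25 CPM), and ctrl replicate 4 for Adipoq (3.62 CPM).

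FL1 replicate 2 was low for Lhcgr (341 CPM) and Npc1 (47.7 CPM) and high for Cxcl14 (122 CPM). FL1 replicate 4 was high for Ptges (210.4 CPM) and Tns4 (10.5 CPM) and low for Npc2 (858 CPM). FL1 replicate 5 was high for Gpnmb (153 CPM) and Adgre1 (15.8 CPM) and low for the share of mitochondrial counts (3.85%). FL1 replicate 3 was low for Adipor1 (67.0 CPM) and high for Clock (82.3 CPM), and FL1 replicate 1 was high for the lipid droplet gene Plin1 (27.3 CPM).

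The line difference in diestrus differed from that in estrus for 8 genes by the interaction test of edgeR. The difference between both log2FC was 2.68 for Tns4, 1.14 for Slc30a1, 0.97 for Plcb4, 0.94 for Klf3 and 0.67 for Taok1, and -1.33 for Olfml2b, -1.15 for Echdc2 and -2.98 for Gm15866 (adjusted p between 0.0328 and 0.0431).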

How the results depend on the processing

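Of 81 called genes among the 139 named genes that were tested, 44 were called in all 9 alternatives and in each of the 10 fits that left out a library, and no value of a called gene changed sign. The number of called genes, 545 in all with 304 higher and 241 lower, became 891, 465 and 426 with DESeq2, and 846 in all with 399 lower when every gene with at least 1 count was tested, where 25729 genes entered. Of the 545 genes, 538 were among the calls of DESeq2, 521 among those of the wider filter and 481 of the 567 of limma-voom. Leaving out a library gave 349 to 594 called genes, 180 to 308 higher and 169 or more lower. With upper quartile factors 285 genes were higher and 253 lower. The interaction, with 8 genes, gave 148 with DESeq2, 31 with limma-voom, 17 with the wider filter and 0 to 13 on leaving out a library. Replicate numbers did not pair the libraries, since deviations of same-numbered FL1 and ctrl libraries correlated at -0.06 to 0.08, and 1 of 5 FL1 libraries matched its own number best. With the replicate number as block 498 genes were called, 428 of them among the 545, and 12 interaction genes. The cause of these shifts was not tested. Of 54838 genes, 25729 had at least 1 count in the 10 diestrus libraries and 13259 passed the filter, and the others were not tested.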

Other observations

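Genes of histidine and histamine enzymes, a list written after the values were seen, had 3 of 6 tested members stronger expressed in FL1 and none weaker (edgeR). Besides Hal and Amdhd1, Hdc, which makes histamine, rose (44.7, 17.4, 36.7, 25.3 and 35.3 CPM in FL1 and 18.5, 16.005, 17.3, 17.9 and 9.53 CPM in ctrl; log2FC 1.00 ± 0.23, adjusted p = 0.0268). Ctrl and FL1 overlapped. Hdc was called in 6 of the 10 fits that left out a library, not without FL1 replicates 1, 3 or 5 or ctrl replicate 2 (log2FC 0.85 to 1.16 over the 10 fits).

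Of 7 tested apolipoprotein genes, also listed after the values were seen, 3 rose and none fell (edgeR), with a median log2FC of 0.43. Without FL1 replicate 1 or FL1 replicate 2, 1 gene rose, and 2 rose without FL1 replicate 4 or 5 or ctrl replicate 1, 2 or 4. Their summed level was 883 to 1112 CPM in FL1 and 694 to 910.3 CPM in ctrl.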
